A study of Mus musculus with 10 samples.

Results

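Transcripts of 9 genes were followed in mouse fibroblasts: the transcription factors Tfeb, Tfe3 and Mitf, the glycoprotein gene Gpnmb, the galectin genes Lgals1, Lgals3, Lgals8 and Lgals9, and Lgals3bp, which encodes a protein that galectins bind. They were picked by name out of 78317 genes in the count table, knowing that Lgals3 and Gpnmb stood out between the CO2 levels and the others did not. Each name had 1 identifier in the table, and all 9 genes passed the filter on low counts. The cells were wild-type mouse embryonic fibroblasts immortalized with T antigen, kept in complete medium for 24 h at 2% CO2 (low CO2, or hypocapnia) or at 10% CO2, the level of their regular culture. There were 5 libraries at each level, of which replicates 1 to 3 formed batch 1 and replicates 4 and 5 batch 2. What the batches were, whether the cells were 1 clone and whether replicates came from separate cultures is not stated in the labels, so the spread between libraries may be technical.

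MITF, TFEB and TFE3 are basic helix-loop-helix leucine zipper proteins that switch on lysosomal and autophagy genes through a palindromic E-box, the core of the element known as CLEAR. They are held in the cytoplasm when the kinase complex mTORC1 at the lysosome phosphorylates them, and enter the nucleus when it does not, so that their activity can change with no change in their own RNA. Gpnmb is a transmembrane glycoprotein of melanosomes and lysosomes, and is known as a target of these factors. Galectins are lectins of the cytosol and the extracellular space that bind galactose-containing glycans. Galectin-3, galectin-8 and galectin-9 gather on lysosomes whose membrane is torn, where the glycans of the inner face become exposed.

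Depth ran from 178676 to 12354538 estimated counts at 2% CO2 and from 892318 to 10607076 at 10% CO2. In batch 1 every library at 2% CO2 (178676 to 2621598) was shallower than every library at 10% CO2 (5694026 to 8985537). In batch 2 every library at 2% CO2 was deeper than those at 10% CO2. Depth thus went with CO2 level within each batch, in opposite directions. The shallowest library, 2% CO2 replicate 2, was so thin that 1 count stood for 5.60 CPM, the count divided by the library total and scaled up by the authors to 1e6 counts. Floors and intervals cover counting error only. Of the fibroblast markers, 10 of 10 had counts, with a summed level of 4615 to 8605 CPM at 2% CO2 and 8289 to 12973 CPM at 10% CO2. Pdgfra, Dcn and Lum were among them at only 72, 34 and 3 counts over all libraries. Of 7 markers tested, 4 fell at 2% CO2 (Col1a1, Col1a2, Thy1 and Vim), beside 6.73% of all genes lower. S100a4 went the other way, with a log2 fold change of 0.82 (edgeR adjusted p = 0.0541). Of 13198 genes tested with edgeR, 1588 (12%) differed between the levels at an adjusted p under 0.05, and of these 44.1% were higher at 2% CO2, or 62.7% when libraries were scaled by their totals in place of TMM. In bulk RNA, fewer cells of a type and less RNA per cell cannot be told apart.

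Gpnmb was about 3 times as abundant at 2% CO2. Its level was 14.5, 11.2, 11.8, 10.2 and 10.3 CPM in replicates 1 to 5 at 2% CO2, against 4.74, 3.45, 1.97, 3.39 and 3.36 CPM in replicates 1 to 5 at 10% CO2. Every library at 2% CO2 was thus above every library at 10% CO2, with a wide gap between them. The means were 11.6 ± 1.76 CPM over libraries of 2% CO2 and 3.38 ± 0.979 CPM over those of 10% CO2 (n = 5 each, SD). The log2 fold change (2% minus 10% CO2, with batch in the model) was 1.77 ± 0.24 (SE), which is 3.41-fold. The gene is lowly counted, and the shallowest libraries say little by themselves: 2% CO2 replicate 2 held 2 counts, for which an exact Poisson 95% interval runs from 1.36 to 40.4 CPM, and 10% CO2 replicate 5 held 3 counts (0.693 to 9.83 CPM). The deepest libraries of batch 2 held 125.5 and 124 counts at 2% CO2 in replicates 4 and 5, against 36 counts in replicate 4 at 10% CO2.

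Lgals3, the gene of galectin-3, behaved alike. It had 273, 146, 209, 145 and 159 CPM in replicates 1 to 5 at 2% CO2, against 71.8, 33.8, 45.9, 36.7 and 60.5 CPM in replicates 1 to 5 at 10% CO2. The groups did not overlap, and replicate 1 was the highest library at either level. The means were 186 ± 55.3 CPM over libraries of 2% CO2 and 49.8 ± 16.1 CPM over those of 10% CO2 (n = 5 each, SD), and the log2 difference was 1.96 ± 0.25 (SE), or 3.89-fold. Counting error was smaller in proportion than for Gpnmb, since the shallowest library still held 26 counts of Lgals3. Its Poisson 95% interval of 95.1 to 213 CPM is wide, but lies above the level of every library at 10% CO2.

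Of the 9 genes, these 2 passed the threshold of the fit over all genes as higher at 2% CO2, where 5.3% of all genes tested did. The members were chosen with this contrast known, so that these differences are given as descriptions without a p-value and nothing is read from the share. The same holds for the groups that did not overlap, which were 2 of 9 here, both higher at 2% CO2, beside 3.19% of the genes tested that were apart in that direction, 1.99% in the other and 5.18% in either. No member passed as lower by edgeR, and 0 of 9 had an unadjusted p under 0.05 in that direction.

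**Figure D1:**
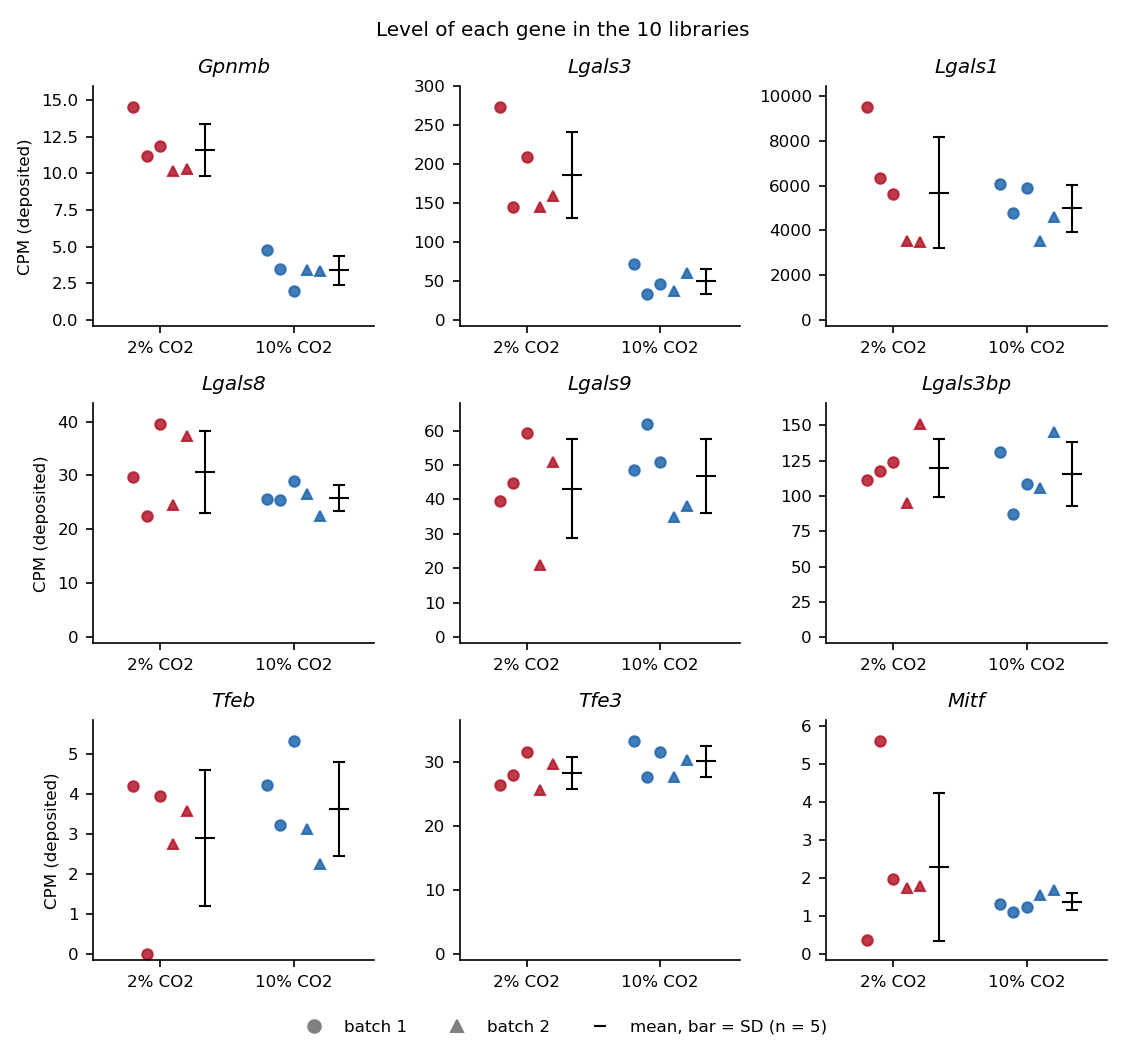
Deposited CPM of the 9 genes (vertical axis, from 0 in each panel, scales differ) in 5 libraries at 2% CO2 (red, left) and 5 at 10% CO2 (blue, right), replicates 1 to 5 from left to right, circles for batch 1 and triangles for batch 2, with the mean and SD beside them. The libraries of the CO2 levels are apart for Gpnmb (10.2 to 14.5 CPM at 2% CO2, 1.97 to 4.74 CPM at 10% CO2) and Lgals3 (145 to 273 against 33.8 to 71.8 CPM), and overlap for the other 7 genes.

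The difference was present in each batch. In batch 1 Gpnmb averaged 12.5 ± 1.75 CPM over libraries of 2% CO2 and 3.39 ± 1.38 CPM over those of 10% CO2 (n = 3 each, SD). In batch 2 it averaged 10.2 ± 0.0957 CPM over libraries of 2% CO2 and 3.38 ± 0.0226 CPM over those of 10% CO2 (n = 2 each, SD). The small SD of batch 2 at 10% CO2 is no measure of precision. Replicate 5 there held 3 counts of Gpnmb (Poisson 95% interval 0.693 to 9.83 CPM). In batch 1 at 2% CO2, replicates 1 to 3 held 38, 2 and 6 counts of Gpnmb. The log2 fold change was 2.04 ± 0.36 in batch 1 and 1.50 ± 0.26 in batch 2 (SE). For Lgals3 it was 2.15 ± 0.32 in batch 1 and 1.73 ± 0.20 in batch 2 (SE). Batch 1 averaged 209 ± 63.8 CPM of Lgals3 over libraries of 2% CO2 and 50.5 ± 19.4 CPM over those of 10% CO2 (n = 3 each, SD), and batch 2 152 ± 10.1 CPM over libraries of 2% CO2 and 48.6 ± 16.9 CPM over those of 10% CO2 (n = 2 each, SD).

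Whether the CO2 difference of a gene itself differed between batches was tested by the interaction term, which the choice of genes had not used. The interaction (batch 2 minus batch 1) was -0.55 ± 0.47 for Gpnmb and -0.46 ± 0.53 for Lgals3 on the log2 scale (SE). Neither passed in edgeR (adjusted p = 0.766 for Gpnmb, 0.853 for Lgals3). None of the 9 genes passed, with adjusted p of 0.590 or more. Over all genes edgeR called 0 of 13198 (0%), while 1155 genes (8.75%) and 0 members had an unadjusted p under 0.05, and DESeq2 called 57 and limma-voom 0. With the few libraries of batch 2, differences of the size of these standard errors would not be detected.

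**Figure D2:**
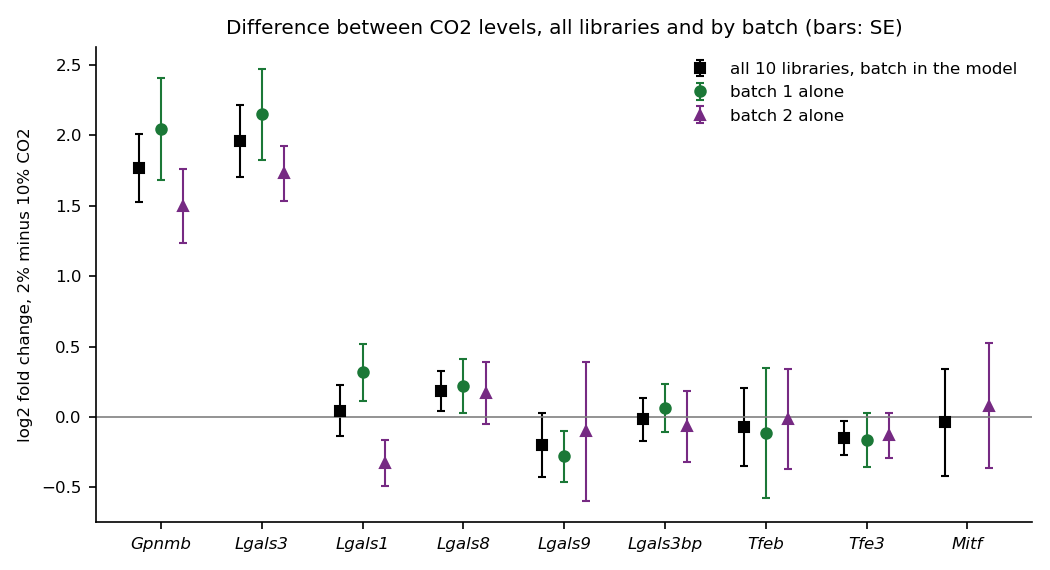
Log2 fold change of each gene (vertical axis, 2% minus 10% CO2, bars are SE) from all 10 libraries with batch in the model (black squares), batch 1 alone (green circles) and batch 2 alone (purple triangles). Gpnmb and Lgals3 lie between 1.50 and 2.15 in all 3 fits, and the other genes between -0.32 and 0.32. Mitf did not pass the count filter in batch 1 alone.

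The sequences before the annotated start of these 2 genes were read for the letters that MiT/TFE factors are known to bind. The palindrome CACGTG, which is its own reverse complement, and the related CATGTG were searched on both strands in windows from 250 bases before to 50 after each RefSeq start (build GRCm38.p6, while the counts rest on GRCm39, so no coordinate is carried over). Of the members, 8 had windows, 13 in all. The 250 bases before the start of Gpnmb and Lgals3 are printed because they are the members that stood out, with those of Lamp1, a listed target of the factors, for contrast. Matches are in capitals.
Gpnmb upstream (chr6:49036268-49036517, + strand): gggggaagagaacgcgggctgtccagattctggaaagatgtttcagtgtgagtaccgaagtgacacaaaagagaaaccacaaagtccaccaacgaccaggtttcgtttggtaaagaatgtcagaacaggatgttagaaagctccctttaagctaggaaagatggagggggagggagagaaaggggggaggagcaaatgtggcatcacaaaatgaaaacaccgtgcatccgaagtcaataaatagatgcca
Lgals3 upstream (chr14:47373610-47373859, + strand): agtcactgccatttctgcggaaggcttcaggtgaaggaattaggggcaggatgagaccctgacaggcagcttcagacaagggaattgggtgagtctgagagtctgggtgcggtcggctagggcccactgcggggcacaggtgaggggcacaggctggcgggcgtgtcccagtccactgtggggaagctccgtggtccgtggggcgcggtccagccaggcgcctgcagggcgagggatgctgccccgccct
Lamp1 upstream (chr8:13158911-13159160, + strand): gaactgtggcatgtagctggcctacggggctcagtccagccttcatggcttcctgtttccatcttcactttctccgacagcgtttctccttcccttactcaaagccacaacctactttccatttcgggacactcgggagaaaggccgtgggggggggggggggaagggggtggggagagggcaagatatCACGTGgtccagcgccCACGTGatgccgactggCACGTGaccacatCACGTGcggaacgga
Neither Gpnmb nor Lgals3 held CACGTG or CATGTG anywhere in its window, while the Lamp1 stretch held CACGTG 4 times. Over all 32851 windows, 7.15% held CACGTG and 14.2% held CATGTG. Of the 13 member windows 0 held CACGTG and 2 held CATGTG. These belong to Lgals9 and Lgals3bp, whose levels overlapped between the CO2 levels, and are shown with CATGTG or its reverse complement in capitals.
Lgals9 (chr11:78985089-78985118, - strand): acgcctgctggcCATGTGactggttctctg
Lgals3bp (chr11:118401971-118402000, - strand): agcagcctctgtCATGTGttttctgaaaat
Lgals3bp (chr11:118401910-118401939, - strand): tgggacgaggctgaggaaagcCACATGgtg
The absence of a match says only that these letters are not in these windows, and a match is not shown to be a bound site.

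The levels of the other galectins overlapped between the CO2 levels. Lgals1, the gene of galectin-1, a small lectin that acts as a dimer, was at 9492, 6352, 5612, 3524 and 3468 CPM in replicates 1 to 5 at 2% CO2, against 6074, 4779, 5912, 3545 and 4617 CPM in replicates 1 to 5 at 10% CO2. The levels overlapped, and what stood apart was batch 2 rather than a CO2 level. The means were 5690 ± 2476 CPM over libraries of 2% CO2 and 4985 ± 1036 CPM over those of 10% CO2 (n = 5 each, SD), with a log2 fold change of 0.04 ± 0.18 (SE) and a 95% interval of -0.34 to 0.43. By batch the log2 fold change was 0.32 ± 0.20 in batch 1 and -0.32 ± 0.16 in batch 2 (SE), and the interaction of -0.66 ± 0.32 did not pass (edgeR adjusted p = 0.590).

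The batch term was tested for the members too, and Lgals1 was the 1 gene of 9 that passed, where 36% of all genes tested did. It was lower in batch 2 by a log2 difference of -0.74 ± 0.19 (SE, edgeR adjusted p = 0.00720). In batch 2 it averaged 3496 ± 39.7 CPM over libraries of 2% CO2 and 4081 ± 758 CPM over those of 10% CO2 (n = 2 each, SD), and in batch 1 7152 ± 2060 CPM over libraries of 2% CO2 and 5588 ± 705 CPM over those of 10% CO2 (n = 3 each, SD). Gpnmb and Lgals3 did not pass the batch test, with log2 differences of -0.26 ± 0.24 and -0.43 ± 0.26 (SE), for which edgeR gave an adjusted p of 0.438 for Gpnmb and 0.224 for Lgals3.

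Lgals8 encodes galectin-8, which has a pair of lectin domains on 1 chain and brings an autophagy receptor to damaged vesicles in human cells. It was at 29.8, 22.4, 39.5, 24.4 and 37.4 CPM in replicates 1 to 5 at 2% CO2, against 25.6, 25.4, 29.0, 26.6 and 22.4 CPM in replicates 1 to 5 at 10% CO2. The ranges overlapped, and 2% CO2 replicate 2 held only 4 counts (Poisson 95% interval 6.10 to 57.3 CPM). The means were 30.7 ± 7.60 CPM over libraries of 2% CO2 and 25.8 ± 2.38 CPM over those of 10% CO2 (n = 5 each, SD). On the log2 scale the fold change was 0.18 ± 0.14 (SE), with a 95% interval of -0.12 to 0.48 that reaches neither 1.77 nor 1.96.

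Lgals9, for galectin-9, another lectin with a pair of domains, was at 39.7, 44.8, 59.2, 20.9 and 50.8 CPM in replicates 1 to 5 at 2% CO2, against 48.6, 61.9, 51.0, 35.0 and 38.1 CPM in replicates 1 to 5 at 10% CO2. The means were 43.1 ± 14.4 CPM over libraries of 2% CO2 and 46.9 ± 10.8 CPM over those of 10% CO2 (n = 5 each, SD). The ranges overlapped, and both libraries of replicate 4 were the lowest of their level. Its log2 fold change was -0.20 ± 0.23 (SE, 95% interval -0.69 to 0.29). Without 2% CO2 replicate 5 it was -0.52 and past the threshold of the fit over all genes.

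Lgals3bp encodes a secreted, heavily glycosylated protein that galectin-3 and galectin-1 bind. It was at 111, 118, 124, 95.3 and 151 CPM in replicates 1 to 5 at 2% CO2, against 131, 87.3, 109, 105 and 146 CPM in replicates 1 to 5 at 10% CO2. Its ranges overlapped nearly whole, with means of 120 ± 20.4 CPM over libraries of 2% CO2 and 116 ± 22.9 CPM over those of 10% CO2 (n = 5 each, SD). Its log2 fold change was -0.02 ± 0.15 (SE, 95% interval -0.34 to 0.31). Scaled by library totals it was 0.06, so its sign is not settled.

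Ratios within a library do not depend on how libraries are scaled. The log2 ratio of Lgals3 to Lgals1 counts (0.5 added to each) was -5.12, -5.42, -4.74, -4.61 and -4.45 in replicates 1 to 5 at 2% CO2, against -6.40, -7.14, -7.01, -6.59 and -6.24 in replicates 1 to 5 at 10% CO2. The ranges did not overlap. Averaged over the batches, the ratio was higher at 2% CO2 by 1.82 on the log2 scale, with 1.76 in batch 1 and 1.89 in batch 2. The difference was 1.62 against Lgals8, 2.04 against Lgals9, 1.83 against Lgals3bp, 1.94 against Tfe3 and 1.89 against Tfeb, each without overlap of the levels. All were picked knowing that Lgals3 stood out and that Lgals1 and these genes did not, so nothing is read from the missing overlap. Tfeb had 0 counts in 2% CO2 replicate 2, where its ratio rests on the added 0.5. It had 2 counts in 2% CO2 replicate 3 and in 10% CO2 replicate 5. Against Mitf, with few counts, it was 1.46, and the ranges of 4.14 to 8.90 at 2% CO2 and 4.52 to 5.68 at 10% CO2 overlapped. Against Gpnmb it was 0.10, with ranges of 3.41 to 4.22 at 2% CO2 and 3.27 to 4.50 at 10% CO2 that overlapped, so the 2 genes differed between the levels by about the same factor.

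**Figure D3:**
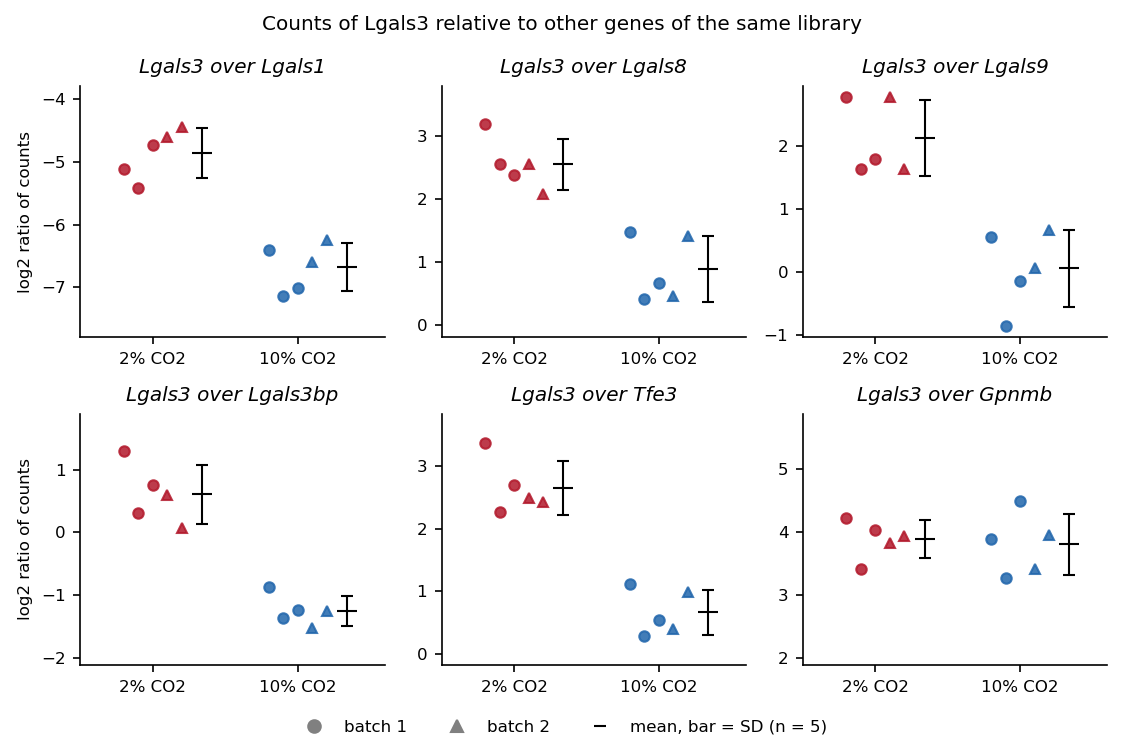
Log2 ratio of Lgals3 counts to those of 6 other genes of the same library (vertical axis, a span of 4 log2 units in each panel) at 2% CO2 (red, left) and 10% CO2 (blue, right), circles for batch 1 and triangles for batch 2, with the mean and SD of 5 libraries. The levels are apart in 5 panels, by 1.62 to 2.04 on average over the batches, and overlap for Lgals3 over Gpnmb. The genes were picked knowing which of them stood out, so nothing is read from the separation. Tfeb and Mitf, with few counts, are not plotted.

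The transcripts of the factors themselves overlapped between the levels. Tfe3 was counted well enough to bound a change: it was at 26.3, 28.0, 31.6, 25.7 and 29.7 CPM in replicates 1 to 5 at 2% CO2, against 33.2, 27.6, 31.6, 27.6 and 30.3 CPM in replicates 1 to 5 at 10% CO2. The means were 28.3 ± 2.44 CPM over libraries of 2% CO2 and 30.1 ± 2.45 CPM over those of 10% CO2 (n = 5 each, SD). The log2 fold change was -0.15 ± 0.12 (SE), with a 95% interval of -0.40 to 0.10.

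Tfeb was at 4.20, 0, 3.95, 2.75 and 3.57 CPM in replicates 1 to 5 at 2% CO2, against 4.21, 3.23, 5.31, 3.11 and 2.24 CPM in replicates 1 to 5 at 10% CO2. The library at 0 is the shallowest, where a count of 0 is compatible with 3 counts (16.8 CPM), and with up to 20.6 CPM by the exact Poisson 95% interval. Its log2 fold change was -0.07 ± 0.28 (SE), and its 95% interval of -0.65 to 0.51 is wider than that of Tfe3.

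Mitf, which drives pigment cell, osteoclast and mast cell genes, was near the limit of detection. It had 1, 1, 1, 21.5 and 21.5 counts in replicates 1 to 5 at 2% CO2, against 7.5, 10, 10, 16.5 and 1.5 counts in replicates 1 to 5 at 10% CO2. In CPM these were 0.381, 5.60, 1.97, 1.74 and 1.78 at 2% CO2 and 1.32, 1.11, 1.23, 1.56 and 1.68 at 10% CO2, and the highest of them rests on a single count. The fractional counts, in 5 libraries, may come from reads shared with other features, which was not tested. The log2 fold change was -0.04 ± 0.38 (SE), with a 95% interval of -0.84 to 0.76. Scaled by library totals it was 0.04.

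Relatives outside the 9 genes were scarcely present. Of 9 listed (Tfec, further galectins and galectin-like genes, and Pmel, the pigment cell relative of Gpnmb), 1 passed the count filter, Lgalsl, at a log2 fold change of -0.48 (edgeR adjusted p = 0.0648). It passed as lower without 2% CO2 replicate 2 or 3, without the 3 shallowest libraries, and with the replicate number as a block in place of batch. Tfec had 1 count, Lgals2 had 3, Lgals7 had 9, Lgals4 had 12 and Pmel had 29 over all libraries, and Lgals12 and Grifin had 0. Lgals6 had no entry under that name in the count table.

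Gpnmb and Lgals3 are also abundant in macrophages, osteoclasts and pigment cells, whose markers were low. Of 12 macrophage markers 10 had counts, summing to 0 to 8.77 CPM at 2% CO2 and 4.62 to 10.6 CPM at 10% CO2, and Adgre1 and Trem2 had 0 counts in all libraries. Cd14 and Cd68 had the most, 215 and 144.5 counts over all libraries. Cd14 was at 3.98 ± 2.50 CPM over libraries of 2% CO2 and 2.22 ± 0.799 CPM over those of 10% CO2 (n = 5 each, SD), with a log2 fold change of 0.94 (edgeR adjusted p = 0.0517). Of 6 osteoclast markers 3 had counts (0 to 11.1 CPM in sum at 2% CO2 and 3.90 to 10.7 CPM at 10% CO2), mostly Ctsk with 360 and Acp5 with 71, and Dcstamp, Ocstamp and Calcr had 0. Of 9 melanocyte markers 3 had counts (1.14 to 5.60 CPM in sum at 2% CO2 and 0.527 to 1.13 CPM at 10% CO2), mostly Kit with 44 and Pmel with 29, and Tyr, Tyrp1, Dct, Mlana, Slc45a2 and Sox10 had 0. The summed macrophage and osteoclast levels overlapped between the CO2 levels, unlike Gpnmb and Lgals3. The melanocyte sums were just apart, higher at 2% CO2, though the highest of them rests on a single count. Their part in the results was not tested.

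Among abundant genes (at least 50 CPM on average), those whose pattern over the 10 libraries lay closest to Lgals3 and to Gpnmb were listed. Likeness was the root mean square distance between log2 CPM values centred on each gene's mean. The distance holds the CO2 difference that set both genes apart when they were chosen, so it only describes them. Gpnmb, itself below 50 CPM, lay at 0.35 from Lgals3, and the median distance of 3855 abundant genes was 1.05. Next to Lgals3 came Zfas1 (0.36), a host transcript of small nucleolar RNAs, the metallothioneins Mt2 (0.42) and Mt1 (0.43), Uap1l1 (0.44), a relative of a nucleotide sugar enzyme, and Cdkn1a (0.47), the cyclin-dependent kinase inhibitor p21. From Gpnmb, Lgals3 was closest (0.35), then Mt1 (0.37), Zfas1 (0.40), Uap1l1 (0.41) and Cdkn1a (0.43). Cdkn1a was at 99.4 ± 15.3 CPM over libraries of 2% CO2 and 44.5 ± 7.58 CPM over those of 10% CO2 (n = 5 each, SD), and Uap1l1 at 86.1 ± 18.5 CPM over libraries of 2% CO2 and 34.5 ± 3.31 CPM over those of 10% CO2 (n = 5 each, SD). Zfas1 and Mt2 had fractional counts in 5 libraries each, so part of their reads may be shared.

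Many genes known as targets of the MiT/TFE factors were higher at 2% CO2. Of 39 tested (42 listed), 27 rose, 1 fell and 11 did not pass, beside 5.3% of all genes higher and 6.73% lower, and their median log2 fold change was 0.50 beside 0.00 over all genes. The list was written with earlier results for many of its genes known. Lamp1, a glycoprotein of the lysosomal membrane that galectins bind, was at 599 ± 143 CPM over libraries of 2% CO2 and 322 ± 80.0 CPM over those of 10% CO2 (n = 5 each, SD). Ctsa, a lysosomal carboxypeptidase, was at 149 ± 14.6 CPM over libraries of 2% CO2 and 78.4 ± 8.95 CPM over those of 10% CO2 (n = 5 each, SD). Flcn, folliculin, whose action on Rag GTPases keeps the factors out of the nucleus, rose by 1.00 on the log2 scale and Atp6v0d1, a subunit of the lysosomal proton pump, by 0.72, with edgeR adjusted p of 7.41e-05 and 0.000299. All of these moved less than Gpnmb and Lgals3, and no tested target of the list rose by more than 1.00. Gpnmb, itself known as a target, is not on the list. Gpnmb and Lgals3 were picked knowing that they stood out in this contrast, so nothing is read from that order. Wipi1, which acts where autophagosomes form, fell to 13.9 ± 5.45 CPM at 2% CO2, against 27.4 ± 6.03 CPM at 10% CO2 (n = 5 each, SD, log2 fold change -1.02, edgeR adjusted p = 7.78e-05). The count of rises was 12 without 10% CO2 replicate 4, and 9 in either batch alone.

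CACGTG stood in the windows of 18 of 33 target genes that had one (54.5%), beside 8.09% of all 27025 genes with windows. Of the 21 target genes that rose and had a window, 11 held it (52.4%), about the same share as in the list. The list was drawn from known targets of factors that bind this motif, so nothing is read from the excess over all genes. Stretches of 30 bases around a match, with the palindrome in capitals, are shown for those named targets that hold one.
Ctsa (chr2:164833749-164833778, + strand): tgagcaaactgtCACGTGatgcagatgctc
Ctsa (chr2:164833766-164833795, + strand): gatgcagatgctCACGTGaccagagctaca
Atp6v0d1 (chr8:105566050-105566079, - strand): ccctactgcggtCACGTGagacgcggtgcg
Flcn and Wipi1 had no CACGTG or CATGTG in their windows, as was the case for Gpnmb and Lgals3.

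Most genes that act upstream of the factors did not pass. Of 36 tested regulators (37 listed), 3 rose, 4 fell and 29 did not pass, with a median log2 fold change of -0.01, beside 5.3% of all genes higher and 6.73% lower. Scaled by library totals, 5 rose and 2 fell. Rragc, a Rag GTPase, rose to 111 ± 29.0 CPM at 2% CO2, against 68.1 ± 7.84 CPM at 10% CO2 (n = 5 each, SD, log2 fold change 0.59, edgeR adjusted p = 0.00257). Lamtor3 and Lamtor4, subunits of the Ragulator complex that anchors Rag GTPases, rose by 0.50 and 0.62, and lost their calls without 10% CO2 replicate 4 (edgeR adjusted p = 0.0532) and without 2% CO2 replicate 1 (0.123). Akt1, a kinase that can phosphorylate TFEB, fell to 194 ± 43.7 CPM at 2% CO2, against 270 ± 49.9 CPM at 10% CO2 (n = 5 each, SD, log2 fold change -0.56, edgeR adjusted p = 0.000616). Ywhag, a 14-3-3 protein of the family that holds the phosphorylated factors in the cytoplasm, fell by 0.40. Ywhaz, another of that family with fractional counts in all 10 libraries, and Prkcd, a protein kinase C, fell by 0.33 and 0.50. These 2 calls were lost when single libraries were left out (Ywhaz in 7 fits, namely without replicates 1, 2, 3 and 4 of 2% CO2 and 2, 3 and 4 of 10% CO2, at edgeR adjusted p of up to 0.0749, and Prkcd in 4 fits, namely without replicates 1, 3 and 4 of 2% CO2 and 3 of 10% CO2, at up to 0.120).

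Genes that act on damaged lysosomes, which galectins mark, mostly did not pass either. Of 40 tested (42 listed), 0 rose by edgeR, 2 fell and 38 did not pass, and the median log2 fold change was 0.03. Over all genes 5.3% were higher and 6.73% lower, so the falls are near that share. In this list 3 genes had an unadjusted p under 0.05 in the direction of higher, and DESeq2 called 0 and limma-voom 1 as higher, while scaling by library totals gave 2 rises and 1 fall, and 1 gene rose without 2% CO2 replicate 2. The list holds ESCRT subunits that seal membranes, ubiquitin and VCP factors that clear damaged lysosomes, and Trim16, a partner of galectin-3 (log2 fold change 0.36, edgeR adjusted p = 0.287). Anxa1, a calcium-dependent membrane-binding annexin, fell to 337 ± 76.4 CPM at 2% CO2, against 540 ± 103 CPM at 10% CO2 (n = 5 each, SD, log2 fold change -0.78, edgeR adjusted p = 6.55e-05). Vcp fell by 0.33 and lost its call in 5 fits, namely without replicates 1 and 4 of 2% CO2 and 1, 3 and 4 of 10% CO2, at edgeR adjusted p of up to 0.0930.

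Enzymes of N-glycan branching and of galactose or sialic acid capping gave 1 rise, 4 falls and 15 genes that did not pass among 20 tested (24 listed). Their median log2 fold change was -0.17, and 5.3% of all genes were higher and 6.73% lower. Without 10% CO2 replicate 4 there were 2 falls and no rise. Of the galactosyltransferases, B4galt2 fell to 17.5 ± 3.93 CPM at 2% CO2, against 32.1 ± 5.80 CPM at 10% CO2 (n = 5 each, SD, log2 fold change -0.93, edgeR adjusted p = 8.07e-05), with fractional counts in 5 libraries. B4galt5 fell by 0.72 and B4galt3 by 0.51, and B4galt3 missed the threshold with 10% CO2 replicate 4 omitted (edgeR adjusted p = 0.0575). B4galt1, another galactosyltransferase, had a log2 fold change of 0.02 and Mgat5, which adds the branch that galectin-3 prefers, one of -0.10, and neither passed. The sialyltransferases St3gal6 and St3gal4 passed narrowly at 1.00 and -0.46 (edgeR adjusted p = 0.0382 and 0.0483). Each lost its call in 8 fits out of 10 with a library omitted: St3gal6 kept its call without 10% CO2 replicates 1 or 5, and St3gal4 without 10% CO2 replicates 2 or 5, and the highest adjusted p were 0.122 and 0.162.

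Surface proteins known to bind galectins or Gpnmb went both ways, with 4 rises, 4 falls and 12 genes that did not pass among 20 tested, and a median log2 fold change of -0.04. The shares over all genes were 5.3% higher and 6.73% lower. Rises numbered 2 without 10% CO2 replicate 4. Tfrc, the transferrin receptor, rose to 261 ± 68.0 CPM at 2% CO2, against 109 ± 22.8 CPM at 10% CO2 (n = 5 each, SD, log2 fold change 1.14, edgeR adjusted p = 2.46e-06). Lamp2 rose by 0.48, and Kdr and Tgfbr2, receptors of growth factors, by 0.98 and 0.54. The call of Kdr was lost without 10% CO2 replicate 4 or 2% CO2 replicate 4 (edgeR adjusted p of 0.155 and 0.0675), and that of Tgfbr2 without 10% CO2 replicate 4 or 2% CO2 replicates 1 or 5 (up to 0.0762). Itga5, the integrin chain that binds fibronectin, fell to 69.7 ± 10.7 CPM at 2% CO2, against 117 ± 17.7 CPM at 10% CO2 (n = 5 each, SD, log2 fold change -0.92, edgeR adjusted p = 0.000122). Thy1, Nrp1 and Mmp14 fell by 0.74, 0.54 and 0.50, and Mmp14 lost its call without 10% CO2 replicate 4 (edgeR adjusted p = 0.0553). Cd44 and Sdc4, known as receptors of Gpnmb, and Adam10, a protease that sheds it in human cells, had log2 fold changes of 0.26, -0.00 and -0.14 and did not pass.

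**Figure D4:**
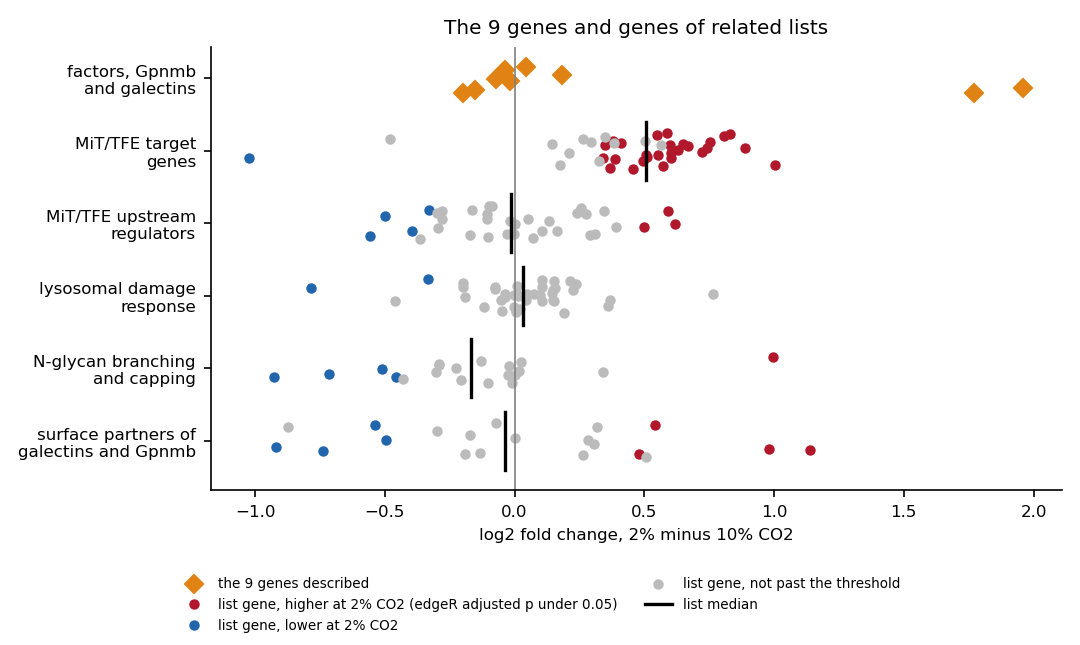
Log2 fold change (horizontal axis, 2% minus 10% CO2) of the 9 genes (orange, top row) and of the tested genes of 5 related lists, red where higher and blue where lower at an edgeR adjusted p under 0.05, grey where not, with the list median as a black line. Gpnmb and Lgals3 (1.77 and 1.96), picked knowing that they stood out, lie to the right of every listed gene, so nothing is read from their place. The target list is centred at 0.50 and the other lists between -0.17 and 0.03.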

How the data were processed

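RNA of 10 libraries was measured, 5 at each CO2 level. The submitters' processing notes name build GRCm39 and the tools SAMtools 1.22.1, STAR 2.7.11, MultiQC 1.32 and featureCounts (Subread 2.1.1), with neither settings nor annotation. The deposited values are estimated counts, not normalized, and 71.0% to 79.2% of those above 0 in a library are whole (tolerance 1e-06). The deposited CPM equal these counts divided by the library total (greatest difference 4.8e-05), and give the levels per library. There were 92 spike-in entries with 0 counts, which were left out.

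Rounded counts went into edgeR 4.0.16 (R 4.3.3), after filterByExpr on the CO2 levels (total of at least 15, count of at least 10) and TMM scaling, with robust quasi-likelihood F tests with batch plus CO2, Benjamini-Hochberg over all genes, two-sided, adjusted p under 0.05. Standard errors are the log2 fold change divided by the root of F. The 95% intervals use the total degrees of freedom of the fit, which are the residual ones plus those gained by pooling over genes. The fit was also run on simulated counts that held no batch difference, so that run does not test the adjustment for batch. Interaction and batch terms came from the same tool. Alternatives were RLE and library total scaling, no filter, 10 CPM in 5 libraries, DESeq2 1.42.0, limma-voom (limma 3.58.1), no batch term, the replicate number as a block, each batch alone, and libraries left out. None of the 8 pairs of libraries within a level and batch agreed within sampling noise (chi-square over genes).

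The 9 genes and the lists were chosen with earlier results of these data known. Named from each list were up to 4 called genes in each direction with the smallest adjusted p; B4galt1, Mgat5, Trim16, Cd44, Sdc4, Adam10 and Lgalsl were added after their values were seen. Sequences are from RefSeq (GRCm38.p6) and hold none for Lgals1.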

Additional observations from a re-analysis of the deposited data

How the results depend on the processing

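Lgals3 and Gpnmb kept their direction and passed the all-gene threshold in all 21 alternatives, with log2 fold changes of 1.73 to 2.23 and 1.50 to 2.04 (1.75 to 2.12 and 1.55 to 1.96 when a library was left out). No other member passed in any alternative, except Lgals9 without 2% CO2 replicate 5 (-0.52). The Lgals3 to Lgals1 ratio difference of 1.82 moved by less than the spread between libraries in every alternative. Lgals1 stayed lower in batch 2 in all 17 alternatives. Beside the 1588 genes called between CO2 levels, counts were 351 with no batch term, 763 in batch 1 alone and 267 in batch 2 alone, and between 736 and 1724 when a library was left out (736 without 10% CO2 replicate 4, 1014 without 2% CO2 replicate 4). Of the target genes, 8 rose with no batch term, 9 in batch 1 alone, 9 in batch 2 alone, and 12 to 26 when a library was left out. The interaction gave 104 genes with no filter, 57 with DESeq2, and 0 to 135 when a library was left out (135 without 10% CO2 replicate 4), none of them a member (smallest adjusted p 0.333). The batch count ran from 3253 to 5260 when a library was left out. The cause of these shifts was not tested. The replicate numbers were not taken to pair libraries. After removing CO2 means, correlations within a number were 0.09 to 0.64. With batch differences thus still in, 7 of 10 libraries correlated best with their own number. After removing batch means too, the correlations were -0.62 to 0.48. With the replicate block 1927 genes were called, 28 target genes rose, and Lgalsl was called lower, St3gal6 was not called, and the mean ratio difference within a number was 1.81. Depth limits Mitf, Tfeb and, in the shallow libraries, Gpnmb.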
